A study of Rattus norvegicus with 24 samples.

Results

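A group of 122 gene identifiers, 0.399% of the 30560 in the count files, rose with dexamethasone in both lung and liver of neonatal rats and stayed near the vehicle level in liver with desisobutyryl ciclesonide. They were chosen by their measured values. For the choice, the count of each gene was divided by the sum of all gene counts of its library and multiplied by 1000000 to give CPM, averaged over the 4 libraries of a group, and 0.5 was added to each mean before folds were taken. A member had a dexamethasone fold of at least 2 in lung and in liver, a liver desisobutyryl ciclesonide fold between 1/1.4 and 1.4, and a dexamethasone mean of at least 5 CPM in both tissues. Of 1781 identifiers with such a fold in lung and 924 in liver, 320 had it in both, and 228 of these reached the level. Among the 228, the liver desisobutyryl ciclesonide fold lay within the bounds for the 122 members, above them for 91 and below them for 15.

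RNA was sequenced from whole lung and whole liver of wild-type Sprague Dawley pups at postnatal day 6, with 4 libraries for each tissue and treatment and 24 in all. Injections were subcutaneous, once a day for 5 days starting on postnatal day 1, and collection followed the final one by 24 hours. The treatments were vehicle (2.5% ethanol), dexamethasone at 0.1 mg/kg and desisobutyryl ciclesonide at 1.25 mg/kg. The doses differ, and no comparison of one drug with the other is therefore dose-matched.

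Glucocorticoids enter cells and bind the glucocorticoid receptor, a transcription factor that then moves to the nucleus and raises or lowers the transcription of target genes. Dexamethasone is a synthetic glucocorticoid that acts throughout the body and has long been given to preterm infants with lung disease. Ciclesonide is an inhaled prodrug that esterases convert to desisobutyryl ciclesonide, the form that binds the receptor, and the liver clears that form from the circulation. Which genes answer to both drugs, and which to dexamethasone alone, in lung and in liver is the question the design poses.

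Gene counts per library ranged from 15839958 to 27881158 for lung and from 15397992 to 26194384 for liver. In the 8 desisobutyryl ciclesonide libraries 0.802% to 1.399% of entries were unaligned, against 1.88% to 3.50% in the other 16. The deposited names number these 8 libraries in a series of their own, so library series and this drug cannot be told apart. In whole tissue, more cells of a type and more RNA per cell cannot be told apart either. The files give Ensembl identifiers without gene names, and none of the 30560 matched the rat gene table at hand. The roles of the members, markers of lung, liver or other cell types, and their sequences are therefore not given here, and 4 members are named by identifier.

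As a description of the values that chose them, the members took 0.601% ± 0.0265 (SD, n = 4) of all gene counts in vehicle lung and 2.45% ± 0.307 in dexamethasone lung. In liver the shares were 0.900% ± 0.0765 with vehicle, 2.57% ± 0.420 with dexamethasone and 0.937% ± 0.172 with the ciclesonide metabolite. The dexamethasone fold had a median of 3.15 in lung, with a range of 2.00 to 44.9, and 36 members reached a fold of 4. In liver the median was 3.11, the range 2.01 to 77.3, and 32 members reached a fold of 4. The folds in lung and liver lay within 2 times of each other for 100 members, while 14 had a lung fold at least 2 times the liver fold and 8 the converse.

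Individual libraries followed the group means for nearly all members. No vehicle library reached any dexamethasone library for 119 members in lung and 115 in liver, on library sizes scaled by the trimmed mean of M-values (TMM). Over all genes tested, 23.7% and 20.2% were higher without overlap. In the fit across all genes, 120 members passed an adjusted p of 0.05 as higher with dexamethasone in lung and 122 in liver (edgeR quasi-likelihood test, Benjamini-Hochberg adjustment), where 26.9% and 22.5% of all genes did. These counts follow from the choice of members and are no further evidence.

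**Figure D1:**
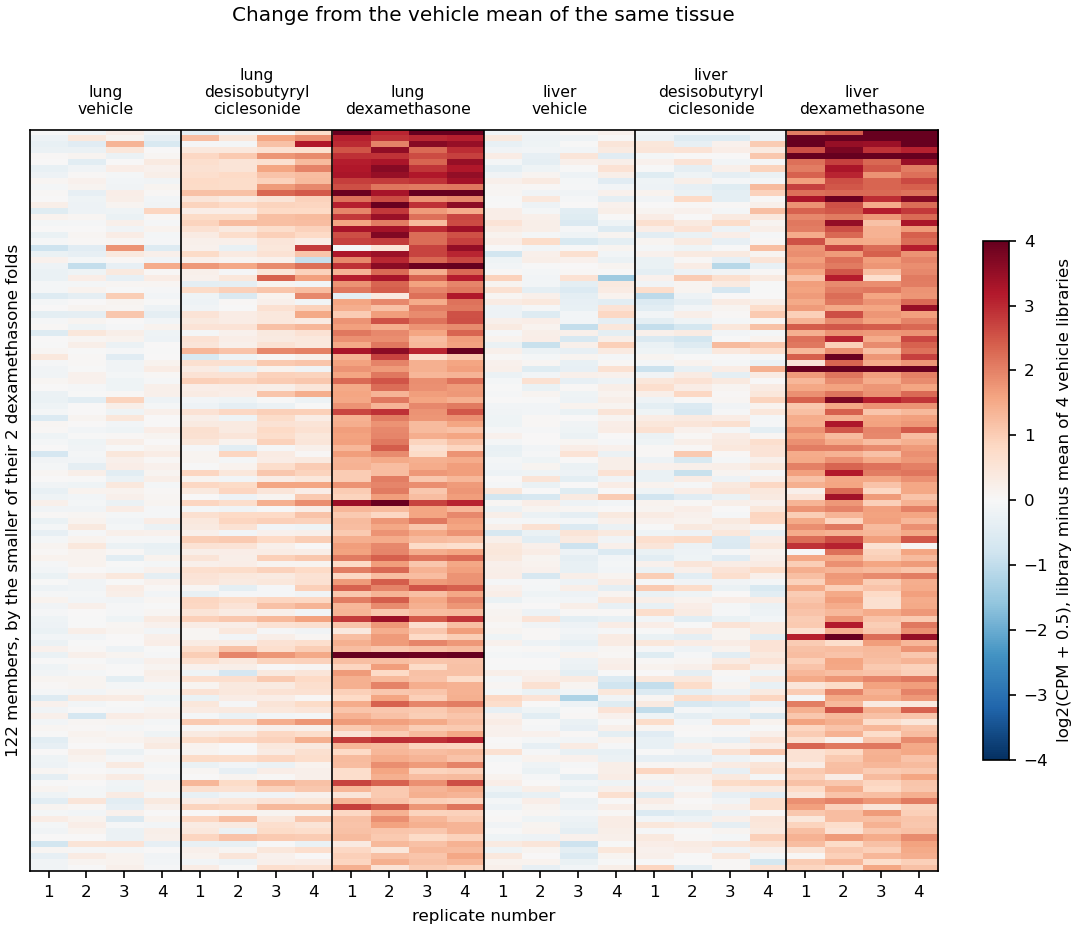
Each row is 1 of the 122 members, ordered from the largest (top) to the smallest value of the lower of its lung and liver dexamethasone folds, and each column is 1 of the 24 libraries. Colour gives log2(CPM + 0.5) in the library minus the mean of the 4 vehicle libraries of the same tissue, so that both dexamethasone blocks are red, liver desisobutyryl ciclesonide is pale and lung desisobutyryl ciclesonide lies between. Changes beyond 4 in either direction have the end colour of the scale.

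For the dexamethasone folds and the upper liver bound, the members just inside the thresholds were little different from the identifiers just outside. The gap was wider at the lower liver bound and for the dexamethasone means, most of all in lung. The nearest values were 2.000 inside and 1.996 outside for the lung dexamethasone fold, and 2.006 and 1.999 for the liver fold. For the liver desisobutyryl ciclesonide fold they were 1.38 and 1.401 at the upper bound and 0.757 and 0.712 at the lower. The dexamethasone mean came to 6.94 CPM inside and 4.38 outside in lung, and to 5.14 and 4.81 in liver. On TMM-scaled library sizes the same rule gave 187 members, among them 117 of the 122. On the sum of gene counts the median of all genes tested stood at log2 changes of -0.23 for dexamethasone in liver and -0.10 in lung, against -0.02 and -0.01 with TMM, so the scaling alone moves genes across the thresholds.

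In liver, the closeness of desisobutyryl ciclesonide to vehicle was set by the rule, and the data bound it only loosely. The members' fold had a median of 1.10 and a range of 0.757 to 1.38, with 82 above 1 and 40 below. In the edgeR fit with TMM the log2 change ran from -2.81 to 0.77, where the bound of 1.4 is 0.49. Its median was 0.21, against -0.01 for all genes, with 86 members above 0 and 36 below. For 2 members it was at or below -1. No member passed an adjusted p of 0.05 in either direction (edgeR; 7 were higher and 0 lower at an unadjusted p under 0.05), where 2.09% of all genes were called higher and 2.43% lower. In 3 members every desisobutyryl ciclesonide library lay above every vehicle library, as in 7.58% of all genes. The 95% interval of the fitted change stayed inside 1/1.4 to 1.4 for 6 members. It reached a 2-fold rise for 33 and a 2-fold fall for 12. The mean was under 1 CPM with vehicle in liver for 9 members and with both vehicle and desisobutyryl ciclesonide for 6, and at such levels the 0.5 added to each mean pulls the fold towards 1.

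The rule did not use the lung desisobutyryl ciclesonide libraries, and there 63 of the 122 members rose against vehicle and 0 fell (edgeR quasi-likelihood test, adjusted p under 0.05). Over all 16108 genes tested in lung, 11.8% rose and 12.3% fell. At an unadjusted p under 0.05, 77 members were higher and 0 lower, and DESeq2 called 75 higher and limma-voom 55, with 0 lower in each. The members' median log2 change was 0.58, against -0.01 for all genes, and 31 members rose by an estimate of at least 2-fold, against 5.38% of all genes. For 71 members every desisobutyryl ciclesonide library lay above every vehicle library, against 15.1% of all genes. The lung vehicle libraries served both in choosing members and in this test, and a member had to be low in them relative to dexamethasone, so the comparison is not independent of the choice.

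Other genes chosen for a dexamethasone fold of at least 2 on the same lung libraries give a yardstick. Among 991 tested genes with that fold and a lung dexamethasone mean of at least 5 CPM that had a liver fold under 2, 44.7% rose with desisobutyryl ciclesonide in lung, with a median log2 change of 0.66. The 91 genes that dexamethasone raised in both tissues and whose liver desisobutyryl ciclesonide fold was above 1.4 rose in 67.0% of cases, with a median of 0.83. The members' share of 51.6% lay between these, their median of 0.58 lay below both, and no difference between the groups was tested.

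The 59 members without a called change in lung were not shown to be unchanged. Their 95% interval reached 0.45 either way of the estimate in the median on the log2 scale. It included a 2-fold rise in 17 of these members and a 2-fold fall in 3. Of all 122 members, 113 had an estimate above 0 and 9 below, down to -0.23.

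Set against dexamethasone in the same tissue, desisobutyryl ciclesonide left 114 of the 122 members lower and 0 higher (edgeR, adjusted p under 0.05), where 24.4% of all genes were lower and 25% higher. Of the 91 genes and the 991 genes above, likewise chosen for being high in these dexamethasone libraries, 82.4% and 77.1% were lower, and the difference from the members was not tested. At an unadjusted p under 0.05 the counts were 115 and 0, with DESeq2 114 and 0, and with limma-voom 115 and 0. The median log2 difference was -1.23, against 0.02 for all genes. The estimate was at least 2-fold lower for 84 members, against 10.2% of all genes, and in 99 members the libraries of the drugs did not overlap, against 21.6%. Without lung dexamethasone replicates 3 and 4, an alternative chosen after seeing the data, 106 members were lower. The number of all genes called lower went from 3938 to 3800. The lung dexamethasone libraries were used in choosing the members for being high. On the log2 scale the desisobutyryl ciclesonide mean was nearer to vehicle for 101 members and nearer to dexamethasone for 21. Both ends of this scale were used in choosing the members. The same count was not made for other genes, so it is not shown to be particular to the members.

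In 8 members the drugs were not told apart in lung, with a median 95% interval of 0.51 either way. The member with the smallest difference, picked out after its values were seen, was measured in lung at 205 ± 24.3 CPM (SD, n = 4) with vehicle, 413 ± 59.0 with dexamethasone and 413 ± 32.5 with the other drug. Its log2 difference between the drugs was -0.01, with a 95% interval from -0.28 to 0.27. In liver its vehicle level was 4.21 ± 0.691 CPM, and dexamethasone and desisobutyryl ciclesonide gave 13.9 ± 2.23 and 5.65 ± 2.11.

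**Figure D2:**
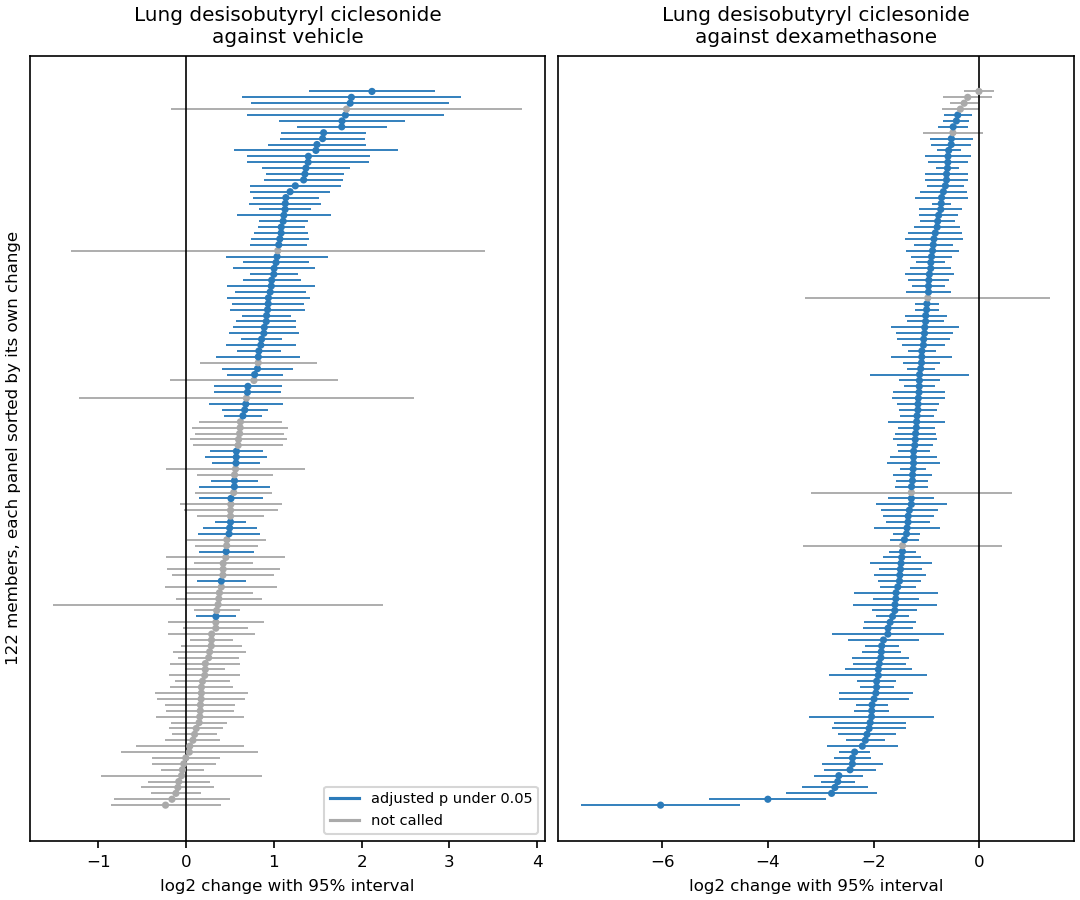
Each point is the fitted log2 change of 1 of the 122 members in lung with its 95% interval, for desisobutyryl ciclesonide against vehicle (left) and against dexamethasone (right), sorted within each panel. Blue marks an adjusted p under 0.05: 63 members lay above 0 on the left and 114 below 0 on the right, and none was called in the other direction.

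The largest of the smaller dexamethasone folds belonged to ENSRNOG00000011250, which was close to absent without dexamethasone. It stood at 0.142, 0.0977, 0.269 and 0.0867 CPM in the vehicle lung libraries (replicates 1 to 4) and at 12.9, 4.82, 14.997 and 15.5 CPM with dexamethasone. In the lung desisobutyryl ciclesonide libraries it stood at 0, 0.0862, 0.122 and 0.568 CPM, a range that spans the vehicle range. In liver it had 3 counts over the 4 vehicle libraries and no count with desisobutyryl ciclesonide, where 3 counts would be 0.0385 CPM. With dexamethasone it reached 1.75, 2.43, 12.1 and 13.7 CPM in liver, and the ratio to vehicle, 185, had a 95% counting interval from 62.9 to 898, which covers counting error only. The dexamethasone libraries lay above all others in both tissues. In lung the log2 change with desisobutyryl ciclesonide was 0.36 (SE 0.87, adjusted p = 0.799 by edgeR), with a 95% interval from -1.52 to 2.24, and the log2 difference from dexamethasone was -6.03 (SE 0.69, adjusted p = 2.60e-05). Without desisobutyryl ciclesonide replicate 4 the change was -1.004 (adjusted p = 0.450).

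ENSRNOG00000046643 followed, with a smaller rise in lung than in liver. With vehicle it stood at 0.849, 1.56, 1.18 and 0.737 CPM in lung and at 0.419, 0.114, 0.111 and 0.230 CPM in liver. With dexamethasone it reached 13.0, 10.9, 12.1 and 12.9 CPM in lung and 52.1, 66.5, 31.9 and 34.9 CPM in liver. The vehicle levels were not called different between the tissues (TMM, log2 difference 1.06 with a 95% interval from -0.10 to 2.23, adjusted p = 0.0954 by edgeR). The desisobutyryl ciclesonide libraries stood at 3.14, 1.64, 4.09 and 5.11 CPM in lung and at 0.116, 0, 0 and 0.115 CPM in liver. All 4 lung libraries thus lay above vehicle and below dexamethasone, while the liver libraries lay within or below the vehicle range. The lung change was 1.78 on the log2 scale (SE 0.33, adjusted p = 0.00257 by edgeR), and the difference from dexamethasone was -1.81 (SE 0.31, adjusted p = 0.000400).

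Among members called in lung with desisobutyryl ciclesonide, the largest rise was that of ENSRNOG00000007069. In lung it went from 3.68, 2.74, 4.36 and 3.73 CPM with vehicle to 8.80, 8.79, 19.5 and 21.9 CPM with desisobutyryl ciclesonide and 61.6, 39.6, 67.4 and 79.2 CPM with dexamethasone. The 3 groups did not overlap. The log2 change from vehicle was 2.12 (SE 0.33, adjusted p = 0.00118 by edgeR), and the difference from dexamethasone was -2.07 (SE 0.31, adjusted p = 0.000209). In liver the vehicle level was already higher, at 62.8, 53.4, 54.0 and 66.9 CPM, and dexamethasone brought it to 273, 284, 283 and 265 CPM. Desisobutyryl ciclesonide left 3 liver libraries near vehicle, at 65.0, 48.6 and 44.6 CPM, and replicate 4 at 113 CPM.

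ENSRNOG00000019518 had the second largest called rise, and its adjusted p lay close to the threshold. Vehicle lung gave 0.991, 0.391, 0.861 and 4.25 CPM. Desisobutyryl ciclesonide lung gave 5.15, 4.48, 5.79 and 7.32 CPM, and dexamethasone lung 12.5, 20.5, 25.5 and 35.4 CPM. The groups did not overlap, though vehicle replicate 4 came close to desisobutyryl ciclesonide. The log2 change was 1.88 (SE 0.57, adjusted p = 0.0333 by edgeR). It was 3.01 (adjusted p = 0.000798) without vehicle replicate 4. Over 17 alternatives the adjusted p ranged from 0.000798 to 0.213, and the call was lost in 8 of them, including each fit without vehicle replicate 1, 2 or 3 and without desisobutyryl ciclesonide replicate 1, 3 or 4. In those 6 fits the log2 change stayed between 1.56 and 1.94. The log2 difference from dexamethasone was -2.04 (SE 0.54, adjusted p = 0.00842), and -1.59 (adjusted p = 0.0651) without dexamethasone replicates 3 and 4. In liver the means were 1.09 ± 0.104 CPM (SD, n = 4) for vehicle, 5.37 ± 0.589 for dexamethasone and 0.821 ± 0.492 for desisobutyryl ciclesonide.

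**Figure D3:**
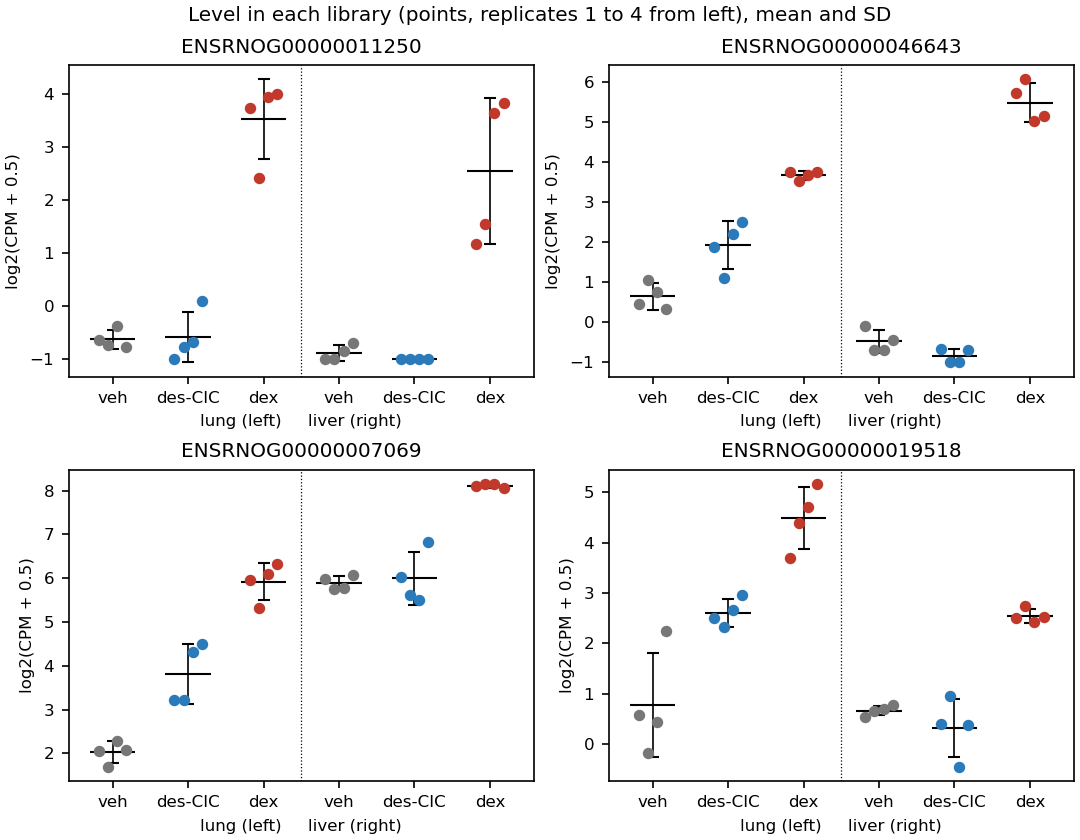
Points give log2(CPM + 0.5) in each library for the 4 named members, with replicates 1 to 4 from left to right in each group, a horizontal line at the mean and bars of 1 SD (n = 4); veh is vehicle, des-CIC desisobutyryl ciclesonide and dex dexamethasone. In liver (right of the dotted line) the des-CIC points lie near or below vehicle, except replicate 4 of ENSRNOG00000007069 at 113 CPM, and in lung those of ENSRNOG00000046643, ENSRNOG00000007069 and ENSRNOG00000019518 lie between vehicle and dex.

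Without either drug, members with more RNA in lung and members with more in liver were both present, in proportions that depended on the scaling. In the vehicle libraries 52 members were higher in lung and 45 in liver (edgeR with TMM, adjusted p under 0.05), where 39.8% and 31.1% of the 16477 genes tested were. With the sum of gene counts as library size, an alternative chosen after seeing the data, 77 were higher in lung and 26 in liver, against 73.4% and 11.4% of all genes. The median log2 difference of all genes, lung less liver, was 1.42 on that scale and 0.18 with TMM, and 12 of the 45 members called higher in liver with TMM lay above 0 on it. The rule set no difference between the tissues. It did use the vehicle libraries of both, and it asked for a dexamethasone mean of at least 5 CPM in each. The comparison is therefore not independent of the choice of members. The members' median log2 difference was 0.11 with TMM and 1.36 on the sum of gene counts, near that of all genes in each case, and with TMM it ranged from -10.62 to 5.32. The median member stood at 27.7 CPM in vehicle lung and 8.54 CPM in vehicle liver, against 23.3 and 12.9 CPM for the genes tested in each tissue. These levels are not corrected for gene length.

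The members at the ends of that range also had the largest dexamethasone folds, each in the tissue where it was low. A low vehicle mean enters both values, as it is also the divisor of the fold. The rule further asked for at least 5 CPM with dexamethasone in that tissue, so the link is partly built in. The member with the greatest excess in liver stood at 1645 ± 141 CPM (SD, n = 4) in vehicle liver and 2.47 ± 0.434 in vehicle lung. Dexamethasone brought it to 133 ± 85.8 CPM in lung, a fold of 44.9, and to 3708 ± 207 in liver, a fold of 2.25. In the lung desisobutyryl ciclesonide libraries it stood at 8.45 ± 2.43 CPM. The member with the greatest excess in lung stood at 35.8 ± 3.79 CPM in vehicle lung and 0.373 ± 0.272 in vehicle liver. With dexamethasone it reached 249 ± 24.8 CPM in lung and 67.0 ± 25.2 in liver, folds of 6.89 and 77.3. With desisobutyryl ciclesonide it stood at 98.3 ± 35.3 CPM in lung and 0.561 ± 0.466 in liver. Both were picked out after their values were seen.

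The summed level was less evenly spread in liver than in lung. The 5 highest members of a group held 23.7% of the members' sum in vehicle lung, 27.4% in desisobutyryl ciclesonide lung and 36.1% in dexamethasone lung, against 53.7%, 51.6% and 47.3% in liver. The highest in lung went from 394 to 541 CPM in vehicle libraries to between 4201 and 5286 CPM with dexamethasone, where it made up 19.5% of the members' sum. In lung with desisobutyryl ciclesonide it lay between 736 and 1072 CPM, above all vehicle libraries. Its liver range was 105 to 140 CPM for vehicle, 422 to 999 for dexamethasone and 85.2 to 108 for desisobutyryl ciclesonide.

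**Figure D4:**
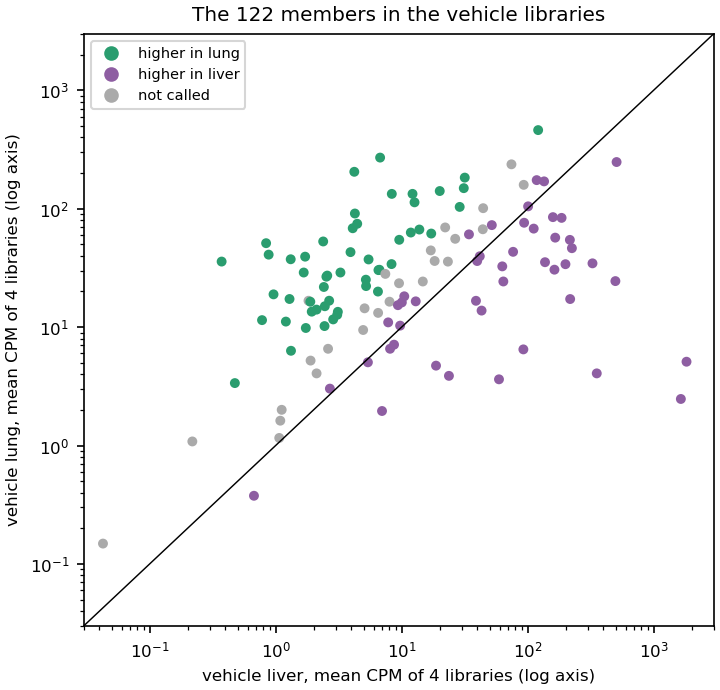
Each point is 1 of the 122 members, at its mean CPM over 4 vehicle libraries in liver (horizontal) and lung (vertical), both on log axes, with the line of equal level. Green marks the 52 members called higher in lung, purple the 45 called higher in liver and grey the 25 not called. The calls use TMM-scaled libraries and the axes do not, so 12 purple points lie above the line.

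Within a group the members tended to be high or low together. The rule used the means of every group except lung desisobutyryl ciclesonide, and a high dexamethasone library raises its group mean. For the groups that the rule used, the pattern is therefore not independent of the choice of members. With dexamethasone, replicate 2 was the highest of the 4 libraries for 83 members in liver, or 68.0%, where it was the highest for 31.1% of all genes (TMM-scaled CPM). In lung, dexamethasone replicate 2 was the highest for 70 members, or 57.4%, against 30% of all genes. With desisobutyryl ciclesonide, replicate 4 was the highest for 72 members in liver, or 59.0% against 28.1%, and for 75 in lung, or 61.5% against 28.1%. In liver vehicle libraries replicate 4 was the highest for 53 members, or 43.4% against 26.4%.

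The median ratio of the library to the mean of the other 3 was 1.34 for liver dexamethasone replicate 2 and 1.24 for lung dexamethasone replicate 2. It was 1.26 for liver and 1.2 for lung desisobutyryl ciclesonide replicate 4. On the sum of gene counts in place of TMM, liver dexamethasone replicate 2 was the highest for 53 members, or 43.4% against 15.9% of all genes. The 91 genes above the liver bound were highest in dexamethasone replicate 2 in 47.3% of cases in lung and 52.7% in liver. They were highest in desisobutyryl ciclesonide replicate 4 in 68.1% and 51.6%, so the pattern was not limited to the members. These genes were chosen by the same dexamethasone folds and for a raised liver desisobutyryl ciclesonide mean. Their shares in those groups are not independent of that choice either. For genes with a lung dexamethasone gain and a liver fold under 2, likewise chosen on the lung dexamethasone libraries, dexamethasone replicate 2 was highest in 47.0% in lung and 40.2% in liver. Desisobutyryl ciclesonide replicate 4 was highest for 55.7% of them in lung and 28.8% in liver. Lung desisobutyryl ciclesonide replicates 3 and 4 together held the highest value of 104 members. Replicate 3 was the highest for 23.8% of members and replicate 4 for 61.5%, against 20.7% and 28.1% of all genes. Among genes with a lung dexamethasone gain and a liver fold under 2, the shares were 27.7% and 55.7%. Without these 2 libraries 34 members were called higher than vehicle in lung, all of them among the 63, while the number of all genes called higher went from 1895 to 612. They held 16399768 and 15839958 gene counts, against 21943070 and 23195805 in replicates 1 and 2. Lung dexamethasone replicate 2 had the fewest of its group, 18880978, and 3.50% unaligned. Liver desisobutyryl ciclesonide replicate 4, in contrast, had the most of its group, 26194384. Whether these differences bear on the pattern was not tested. Without liver dexamethasone replicate 2, 7 members had a liver fold under 2 and the median fold was 2.95.

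**Figure D5:**
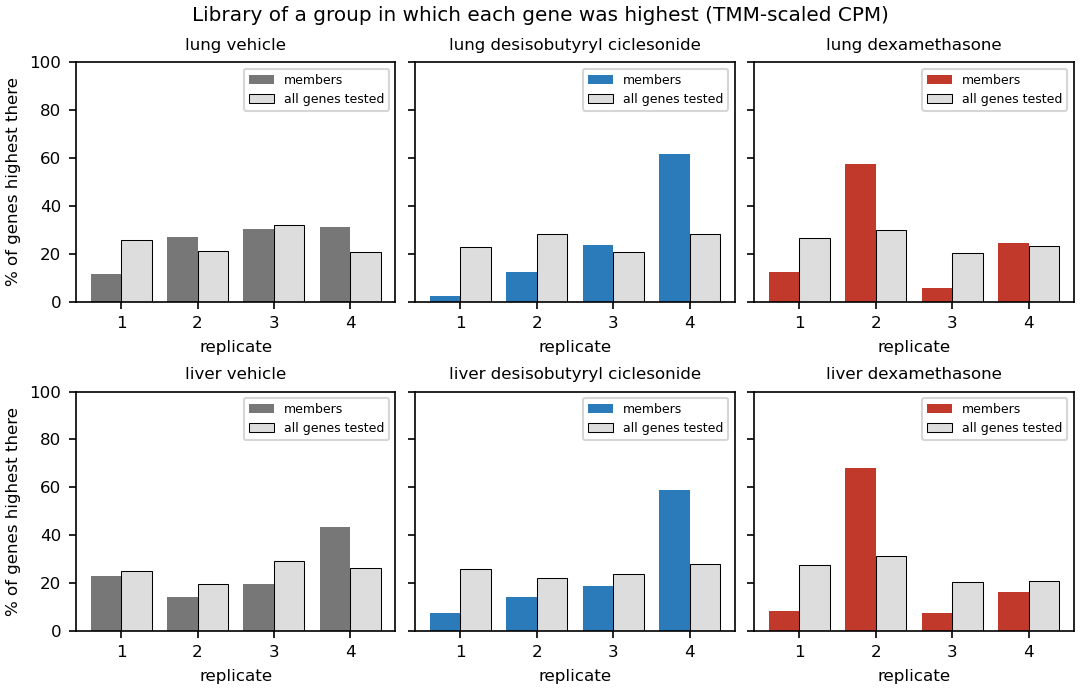
For each group of 4 libraries, coloured bars give the percentage of the 122 members that were highest in each replicate and pale bars the same over all genes tested in that tissue (16108 in lung, 13734 in liver). Dexamethasone replicate 2 and desisobutyryl ciclesonide replicate 4 stand out in both tissues, between 57.4% and 68.0%.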

How the data were processed

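RNA-seq counts from 24 libraries were analysed, grouped as their titles give tissue, treatment and number. Polyadenylated RNA went into a directional dUTP library, per the labels' protocols. Cutadapt, HISAT2 and HTSeq, and the build mRatBN7.2, are listed in the submitters' processing notes. Versions and the strand setting of counting are not given in the sources used here, so counts of overlapping, antisense or near-identical genes are uncertain. The deposited values are raw counts per gene, and 5 summary rows (16.8% to 31.8% of entries) were left out of library sizes and tests.

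Members and lists were chosen with earlier results of these data known. Gene lists fixed by symbol could not be run, for want of names. The named members are the 2 with the largest value of the lower dexamethasone fold and, beyond these, the 2 with the largest called rise in lung with desisobutyryl ciclesonide (no member fell). Counts were fitted with edgeR 4.0.16 in R 4.3.3: the default expression filter, TMM scaling, a robust quasi-likelihood model with 1 mean per group over the 12 libraries of a tissue (all 24 for the vehicle comparison of tissues), and Benjamini-Hochberg adjustment over all genes tested. All 122 members passed the filter in both tissues. Intervals are from the same fit. CPM printed are on the sum of gene counts. DESeq2 1.42.0, limma 3.58.1 (voom), RLE scaling, no filter, fits on 2 groups, a replicate block and leaving out each library were alternatives. The model and the rule were tested on simulated data.

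Vehicle lung and liver libraries of the same number deviated together (Pearson r across 13245 genes from 0.114 to 0.316), so numbers were taken to pair pups across tissues, which the labels do not state. Nothing in the labels names litters, so p-values measure the spread between these libraries. Libraries of a group differed beyond counting noise in all 36 pairs (lowest chi-square over its degrees of freedom 11.6).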

Additional observations from a re-analysis of the deposited data

Results flagged for a closer look

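Single libraries stood apart in 2 of the 30 groups of 4 examined, which cover the members' summed share of counts and the 4 named members, and chance alone flags about 1 in 20 groups. In liver with desisobutyryl ciclesonide, the members took 1.19% of gene counts in replicate 4 and 0.812% to 0.873% in the other 3 libraries. ENSRNOG00000019518 stood at 4.25 CPM in lung vehicle replicate 4 and at 0.391 to 0.991 CPM in the other vehicle lung libraries.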

How the results depend on the processing

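The number of members depended on the scaling and the thresholds: 187 with TMM-scaled library sizes, 206 with DESeq2 size factors, 73 with a liver bound of 1.2, and 186 and 70 with dexamethasone folds of at least 1.8 and 2.5. Leaving out 1 library at a time gave 112 to 134. Calls of the 122 members kept their direction and stayed within 1.5 times under all alternatives run except the 2 chosen after seeing the data that follow: leaving out 1 library gave 50 to 63 higher than vehicle in lung, 109 to 115 lower than dexamethasone, and 46 to 52 higher in vehicle lung and 42 to 47 in vehicle liver. The first of these, without lung desisobutyryl ciclesonide replicates 3 and 4, gave 34 higher than vehicle, as all genes called higher went from 1895 to 612. The second, the sum of gene counts as library size, left 26 higher in vehicle liver and 77 in vehicle lung, while 57 were higher than vehicle and 114 lower than dexamethasone in lung. For ENSRNOG00000011250 the uncalled lung change ranged from -1.004 to 0.83 when 1 library was left out, and it turned to -0.40 with limma-voom, -1.004 without desisobutyryl ciclesonide replicate 4 and -1.52 without replicates 3 and 4; the cause was not tested. With the replicate number as a block, 63 members were higher than vehicle in lung and 114 lower than dexamethasone. Pairing the vehicle libraries of both tissues by number, as if by pup, gave 53 higher in vehicle lung and 50 in vehicle liver. In these fits with a block, no call count moved by over 1.5 times. In lung the same number across treatments marks no shared pup. No block could be fitted to the count of members, which comes from no test.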
